A study of Mus musculus with 63 samples.

Results

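The adult brain of wild-type (WT) mice was set against whole WT E13.5 embryos (E gives the embryonic day). The libraries were chosen by their titles and number 6 of the 63 in the series, 3 of brain and 3 of embryos, each labelled as a separate sample. Neither group carries a mutation or had a treatment. The methods give a range of ages for adult mice of the study as a whole, not the age behind each brain, and the sex behind each library is not given in the sources used here. A statement that all samples share says that C57black6 Ola HSD males were bought and other strains were bred in house. The mutant lines were made in CB6F1 Ola HSD mice and then crossed back to C57BL/6 Ola HSD. The study made these libraries to compare Chaserr+/- with WT animals within each tissue and states no question for brain against embryo. Chaserr+/- animals, which have a CRISPR deletion of the promoter and first exon of Chaserr on 1 allele, gave 3 brains and 3 E13.5 embryos that serve here as a repeat. Chaserr is a long noncoding RNA gene upstream of Chd2, which encodes a chromatin remodeller. Poly(A) RNA was sequenced with the TruSeq stranded mRNA kit for all embryos and for brain replicate 3, and with the Lexogen SENSE kit for brain replicates 1 and 2. A whole embryo and an adult organ differ in their organs and in their age at once, and these cannot be told apart.

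An E13.5 embryo holds a forming brain together with limbs, skin, muscle, heart, liver and circulating blood, and most of its tissues still contain dividing cells. The adult brain consists largely of neurons that have left the cell cycle and of glia, of which myelinating oligodendrocytes and mature astrocytes arise mostly after birth. Many proteins used by every cell also have a relative that is made mainly in neurons, so the nervous system can be recognised both by its own genes and by which member of a gene family it uses.

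The total count per library was 24875751, 26311335 and 25656932 in the embryos and 14124883, 13956040 and 33192002 in brain replicates 1, 2 and 3. Levels are given in TPM (transcript abundance scaled to a fixed total, which corrects for gene length), and differences as the log2 fold change of brain over embryo. At 1 TPM or more, 14832, 14896 and 14756 genes were detected in the embryos and 14531, 14520 and 14517 in the brains. Log2 values of the embryos correlated with each other at 0.9889 to 0.9923 across genes, brains 1 and 2 at 0.9834, and brain 3 with these at 0.9527 and 0.9565. Between brains and embryos the correlation was 0.6533 to 0.7065.

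Several genes set single libraries apart and bear on the results below. Xist, the RNA that covers the inactive X chromosome, was at 0.02, 245 and 0.13 TPM in embryos 1, 2 and 3 and at 229, 0.02 and 0.03 TPM in brains 1, 2 and 3. The Y-linked helicase gene Ddx3y was at 20.9, 0 and 21 TPM in the embryos and at 0, 8.34 and 0 TPM in the brains, and Uty, Kdm5d and Eif2s3y had counts in these same 3 libraries. Embryo 2 and brain 1 thus had Xist and no Ddx3y, so they go against the shared statement on males if it was meant for them. Brain 3 had hardly any Xist and no Y-linked transcripts, a combination that none of the other 5 WT libraries showed. None of these 5 genes was called between the tissues.

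Brains also differed in cerebellar transcripts. Pcp2, a Purkinje cell gene, was at 0.91, 471 and 81.8 TPM in brains 1, 2 and 3, and at most at 0.23 TPM in the embryos. Cbln3, a granule cell gene, was at 0.24, 109 and 13.7 TPM in the brains, and Gabra6, the granule cell subunit of the GABA-A receptor, was at 0, 101 and 14.1 TPM. Brain 1 thus had almost no transcripts of these genes, and brain 2 the most. The 10 cerebellar genes listed summed to 283, 1581 and 665 TPM in the brains.

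Further genes split the brains by kit. Kit and anything else that the libraries of a kit shared cannot be told apart in them. Cdr1 was at 342 and 556 TPM in the SENSE brains and at 0.03 TPM in the TruSeq brain, and it had no counts in the embryos. Klhl34 was at 53.4 and 48 TPM in the SENSE brains and at 0.05 TPM in the TruSeq brain, within the 0.03 to 0.09 TPM of the embryos. Lrrc17 was at 0.61 and 0.38 TPM in the SENSE brains, at 91 TPM in the TruSeq brain and at 79 to 88.2 TPM in the embryos. Fabp7, a lipid carrier of radial glia and astrocytes, was at 42.5 and 24.4 TPM in the SENSE brains, 258 TPM in the TruSeq brain and 477 to 627 TPM in the embryos. The Chaserr+/- brains were split alike, with Cdr1 at 357 and 310 TPM in the SENSE and 0 TPM in the TruSeq brain, and Fabp7 at 14, 5.56 and 616 TPM. In the same order, Lrrc17 was at 0.29, 0.36 and 110 TPM. A single gene ID without a symbol held 9.13% and 10.2% of all counts in brains 1 and 2 and 0.107% in brain 3.

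**Figure D1:**
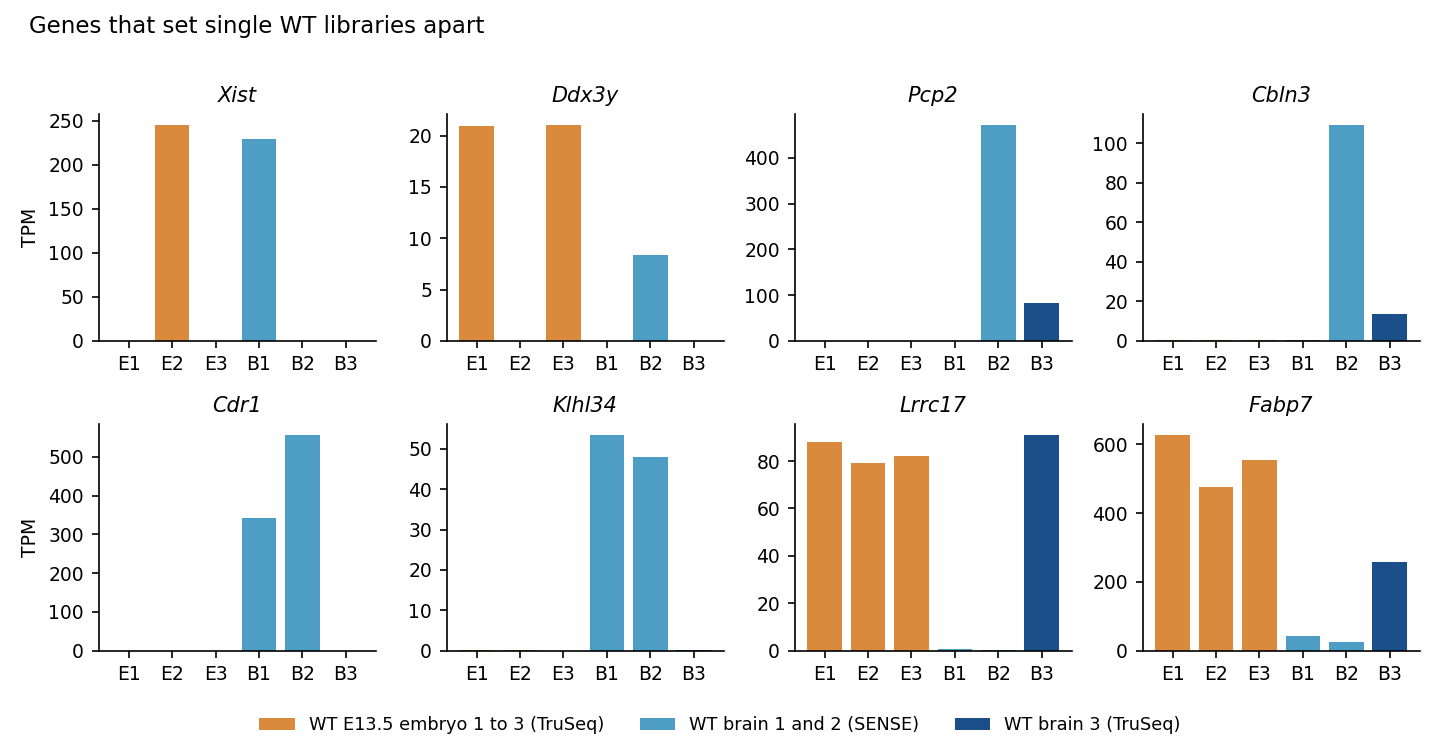
Levels of 8 genes in TPM (bars, linear axes from 0) in the 3 WT embryos (E1 to E3) and 3 WT brains (B1 to B3), coloured by tissue and kit. Xist (0.03 TPM) and Ddx3y (0 TPM) are both at or near 0 in B3, Pcp2 and Cbln3 are highest in B2, and Cdr1, Klhl34, Lrrc17 and Fabp7 separate the SENSE brains from the TruSeq brain.

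Over the 6 brains of both genotypes, 7277 of 15304 genes (47.5%) differed between the kits at an adjusted p under 0.05 from edgeR, 3650 higher and 3627 lower in SENSE. The difference was at least 4-fold in 317 genes (2.07%) higher and 104 (0.68%) lower in SENSE. The median absolute log2 difference was 0.47 between kits and 1.09 between tissues. In 5 bins of gene length, from the shortest to the longest, the median log2 kit difference was -0.05, -0.11, -0.07, 0.00 and 0.18, so it differed from the others mainly in genes of 4680 bases or more. For this reason, every call below was also read in brain 3 alone against the embryos, and in a fit over all 12 libraries with the kit as a term, and most list calls lost there are given with their values.

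Brain and embryo differed in most of the genes that could be tested. Of 16215 genes, 11526 (71.1%) were called at an adjusted p under 0.05 from edgeR, with 5703 (35.2%) higher and 5823 (35.9%) lower in brain, and 4439 of them differed at least 4-fold, 2372 (14.6%) higher and 2067 (12.7%) lower. The 3 brains and the 3 embryos did not overlap in 12525 genes (77.2%). A count of called genes in a short list has to be read against these shares. In brain 3, which shares its kit with the embryos, 11439 of the called genes (99.2%) lay outside the range of the embryos on the side of the call, as did 4426 of the 4439 with a 4-fold difference. Nothing says that the animals of a group came from separate litters, so the p values measure only the spread between these samples. With 3 samples a group, an exact permutation test of a single gene cannot go below a two-sided p of 0.1.

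Among genes with a mean of at least 50 TPM in brain, the 10 with the largest fitted differences were Mobp, Mog, Oxt, Gpr37l1, Opalin, Ntsr2, Avp, Fa2h, Gabrd and Ddn. The order among genes without counts in a tissue, such as Oxt, depends on the prior count of the fit. Mobp, a protein of compact myelin, was at 858, 1001 and 515 TPM in the brains and at 0.05, 0 and 0 TPM in the embryos. With only 2 counts in the embryos, the ratio of brain to embryo was 37784, with a 95% counting interval from 10459 to 312004. Mog, a protein on the outer surface of myelin, was at 243, 283 and 311 TPM in the brains and had 2 counts in the embryos. Mobp, Mog, Opalin and Fa2h belong to myelin or its lipids, Gpr37l1 and Ntsr2 are receptors of astrocytes, and Oxt and Avp encode the hypothalamic hormones oxytocin and vasopressin. Gabrd encodes the subunit that places GABA-A receptors outside the synapse, and Ddn a protein of dendrites.

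Among genes with a mean of at least 50 TPM in the embryos, the 10 with the largest fitted differences were Hbb-y, Hba-x, H19, Hbb-bh1, Actc1, Myog, Myl7, Krt5, Afp and Hmga2. H19, an imprinted noncoding RNA, was at 5581, 5478 and 5544 TPM in the embryos and at 0.15, 0.14 and 1.32 TPM in the brains, a log2 fold change of -12.88 (standard error 0.74, edgeR adjusted p = 7.76e-06). Hbb-y, the embryonic beta-like globin, was at 7084, 11518 and 13682 TPM in the embryos and at 0, 0.32 and 0.55 TPM in the brains. Hba-x, the embryonic alpha-like globin, had no counts in the brains and was at least 2394-fold lower there, counting 3 reads over the group as the floor. These genes mark blood, imprinted growth control, muscle (Actc1, Myog, Myl7), skin (Krt5), liver (Afp) and fetal growth (Hmga2). As these are bulk samples, fewer cells of a type and less RNA per cell cannot be told apart, here and in every list below.

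**Figure D2:**
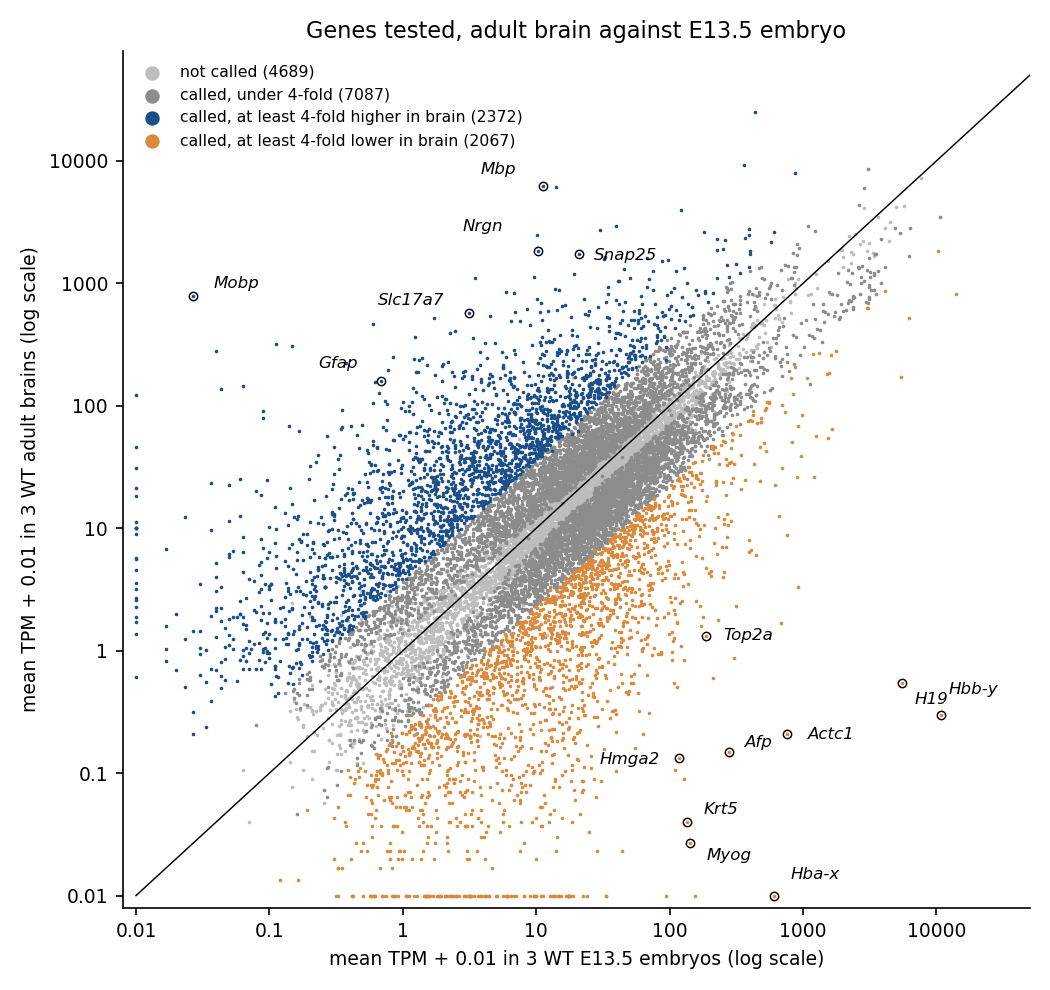
Each point is a gene tested (16215), placed by its mean TPM in the 3 WT embryos (x axis) and the 3 WT brains (y axis), both with 0.01 TPM added and on log scales. Blue and orange points are the 2372 genes higher and the 2067 lower in brain by at least 4-fold, and the line marks equal levels.

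All 26 genes of synaptic vesicle release that were listed were higher in brain, 25 of them at least 4-fold, with a median log2 fold change of 4.23 against -0.03 over all genes tested. Their summed level was 542, 443 and 479 TPM in the embryos and 11235, 10382 and 10872 TPM in the brains. Snap25, a membrane protein of the SNARE complex that fuses vesicles, was at 24.3, 19.5 and 18.9 TPM in the embryos and at 1552, 1404 and 2280 TPM in the brains. Its log2 fold change was 6.52 (standard error 0.238, edgeR adjusted p = 1.67e-06). Vamp2, its partner on the vesicle, went from 83.2, 68.3 and 74.8 TPM to 1559, 1325 and 937 TPM, and Cplx1, which clamps the complex until calcium enters, from 17.8, 12.9 and 13.8 TPM to 1012, 955 and 705 TPM. The 3 brains lay far above the 3 embryos in each.

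The transporters that fill vesicles with transmitter differed in size of change. Slc17a7, which loads glutamate in the cortex and hippocampus, was at 3.26, 2.81 and 3.36 TPM in the embryos and at 605, 552 and 564 TPM in the brains (log2 fold change 7.65, the largest of the list). Slc17a6, the glutamate transporter of deeper brain regions, was at 16, 14 and 14.1 TPM in the embryos and at 50, 49.5 and 55.4 TPM in the brains (log2 fold change 1.95, the smallest). Slc32a1, which loads GABA, had a log2 fold change of 4.10.

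General neuronal genes were less uniform. Of 20, 16 were higher in brain, 1 lower and 3 were not called, and 10 were at least 4-fold higher (median log2 fold change 2.22). Nrgn, a calmodulin-binding protein of dendrites, was at 9.54, 11.1 and 10.4 TPM in the embryos and at 2196, 2047 and 1237 TPM in the brains. Camk2a, the kinase enriched at excitatory synapses, was at 11.1, 8.64 and 8.88 TPM against 1350, 1079 and 982 TPM, and the surface protein gene Thy1 had a log2 fold change of 6.35. Tubb3, the beta-tubulin of newborn neurons, was at 799, 618 and 720 TPM in the embryos and lower in the brains, at 412, 384 and 542 TPM (log2 fold change -0.54, edgeR adjusted p = 0.016), a call that was lost with the kit as a term (-0.24) and without embryo 1 or 3 or brain 1 or 2. Among the neurofilaments, Nefh of thick adult axons had a log2 fold change of 5.70, Nefl of 0.87 and Nefm of 0.24 (adjusted p = 0.0871), and Ina of 0.05 (adjusted p = 0.885). Map2, the microtubule protein of dendrites, was at 99.3, 89.1 and 94 TPM in the embryos and 316, 255 and 345 TPM in the brains.

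All 22 glutamate receptor genes were higher in brain, 18 at least 4-fold (median 3.46). Grin1, the obligatory subunit of NMDA receptors, was at 4.26, 2.81 and 3.64 TPM in the embryos and at 228, 198 and 173 TPM in the brains (log2 fold change 5.96). Its partners Grin2a and Grin2c, which in the brain come on after birth, had log2 fold changes of 6.68 and 5.96, and Grin2b and Grin2d, the subunits of the fetal brain, of 4.85 and 2.14. The kainate receptor genes Grik1 to Grik5 had the smallest differences of the list, between 1.20 and 2.05. Of the GABA and glycine receptors, 18 of 18 tested were higher, 17 at least 4-fold (median 4.42). Gabrd was at 0.04 to 0.12 TPM in the embryos and at 61.3 to 91.4 TPM in the brains (log2 fold change 9.96). Glra2, the alpha subunit of fetal glycine receptors, had the smallest difference, 1.44.

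Voltage-gated potassium channels were higher in 17 of 17 cases, 16 at least 4-fold (median 3.88), led by Kcnc2 (6.11), Kcna1 (5.34) and Kcna2 (5.11), which shape fast firing. Sodium channels divided by the tissue that uses them. Of 13, 7 were higher, 3 lower and 3 not called. Scn1a of adult inhibitory neurons was at 1.48, 1.34 and 1.55 TPM in the embryos and at 33.7, 34 and 32.9 TPM in the brains, and the beta subunit gene Scn4b had a log2 fold change of 7.71. Lower in brain were Scn4a of skeletal muscle (-4.71) and Scn10a (-4.13) and Scn9a (-1.55) of sensory neurons, which lie outside the brain. Scn3a, the channel of the fetal brain, was at 9.76, 9.35 and 9.46 TPM in the embryos and at 10.7, 8.1 and 8.94 TPM in the brains, so the groups overlapped (log2 fold change 0.09, edgeR adjusted p = 0.588).

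Glial lists were led by the myelinating oligodendrocyte. Of 17 genes of this lineage, 15 were higher in brain and 2 lower, with a median of 6.08, and their sum went from 207, 204 and 200 TPM in the embryos to 9688, 10791 and 15495 TPM in the brains. Mbp, a major protein of compact myelin, was at 11.6, 11.1 and 11.3 TPM in the embryos and at 4502, 5118 and 8974 TPM in the brains (log2 fold change 8.21). The genes lower in brain, Pdgfra and Cspg4, mark oligodendrocyte precursors and are also expressed in embryonic mesenchyme and pericytes. Pdgfra was at 92.5, 96.9 and 93.6 TPM in the embryos and at 19.5, 17.6 and 27.9 TPM in the brains, just under a 4-fold difference, and Cspg4 had a log2 fold change of -0.41 (edgeR adjusted p = 0.0203), a call lost without embryo 1 or 3. All 16 astrocyte genes were higher (median 4.43), but 15 with upper-quartile scaling and without any 1 of the embryos. Gfap, the intermediate filament of astrocytes, was at 0.43, 1.19 and 0.41 TPM in the embryos and at 102, 98.2 and 281 TPM in the brains, and Aqp4, the water channel of their endfeet, at 0.56 to 0.83 TPM against 46.3 to 107 TPM. Gja1, a gap junction gene of many embryonic tissues, was the smallest of the list with a log2 fold change of 0.60.

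Microglial genes were higher in 11 of 14 cases, 2 lower and 1 not called, with a median of only 1.59. P2ry12 and Siglech, which mark resident microglia, had log2 fold changes of 4.50 and 4.52. Tmem119 was lower in brain, at 22.7, 18.4 and 34.2 TPM against 65.2, 65.6 and 70.5 TPM in the embryos (log2 fold change -1.28). It is used as a microglial marker in the adult brain and is also known from bone-forming cells. Its call was lost with the kit as a term over 12 libraries (-0.71). Olfml3 was also lower (-1.15).

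The vessel list was divided. Of 12 genes, 6 were higher, 5 lower and 1 not called. Several transporters of the blood-brain barrier were higher, Slco1a4 with 0.33 to 0.37 TPM in the embryos and 17.6 to 20.2 TPM in the brains (log2 fold change 5.84), Slco1c1 with 4.40 and the efflux pump Abcb1a with 3.27, while another efflux pump, Abcg2, was lower with -1.32. Among other endothelial genes, Ly6c1 was at 1.75, 1.99 and 2.1 TPM in the embryos and at 195, 219 and 62.1 TPM in the brains (6.55). Lower were Cdh5 with -2.62, Tek with -1.49 and Pecam1 with -1.46, and so was Cldn5 with -0.47, a call that was lost with the kit as a term and without embryo 1 or 3 or brain 1 or 2. Flt1 was called higher (1.07) but was at -0.02 with the kit as a term over 12 libraries, and Slc2a1, the glucose transporter, was not called (0.65). Of 12 choroid plexus and ependymal genes, 7 were higher, 3 lower and 2 not called. Ttr, the thyroid hormone carrier made by the choroid plexus, was at 312, 279 and 191 TPM in the embryos and at 1889, 1936 and 2954 TPM in the brains, and Aqp1, Otx2 and Sostdc1 were lower, with -2.39, -1.35 and -1.18.

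Region markers showed that the brain libraries spanned several regions. All 10 striatal genes were higher (median 4.32), among them Ppp1r1b at 3.43, 1.51 and 2.43 TPM in the embryos and 390, 425 and 400 TPM in the brains. Its values differed little between the brains. Of 12 cortical and hippocampal genes, 11 were higher (median 2.14), with Slc30a3, the zinc transporter of glutamate vesicles, at 4.95, and Ccn2 not called. Hypothalamic and monoamine genes were higher in 10 of 12 cases (median 3.74). Oxt had no counts in the embryos and was at 110, 189 and 69.2 TPM in the brains, at least 638-fold higher, and Hcrt, the orexin gene, at least 276-fold. Slc6a4, the serotonin transporter, was at 8.48, 7.04 and 0.46 TPM in the brains and at 1.37 to 1.85 TPM in the embryos, so brain 3 lay below the embryos (log2 fold change 1.86, edgeR adjusted p = 0.0997). Of 8 cerebellar genes tested, 6 were higher and 2 not called, against 3 of 7 with limma on log2 TPM with 1 added and 4 of 10 without embryo 1 or 2. With the kit as a term over the 6 libraries, 4 were higher and 1 was lower. Gabra6 and Pcp2 were left out of the test because of their low counts in brain 1, and Cbln3 was called (log2 fold change 6.41, edgeR adjusted p = 0.0143) although brain 1 lay below all embryos. The call of Cbln3 was lost without embryo 1 or 2.

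The brains also held a little RNA of pituitary genes. Gh, growth hormone, had no counts in the embryos and was at 7.11, 6.66 and 3.04 TPM in the brains, at least 55.1-fold higher, and Prl, prolactin, was at 3.91, 1.23 and 2.66 TPM in the brains. The 8 pituitary genes summed to 15, 10.7 and 9.75 TPM in the brains, Gh being the most abundant, with Fshb at 0 in all 3. Of these 8 genes, 3 were tested and 2 called higher, and neither was called in the Chaserr+/- animals. Red cell transcripts were present in the brains too, with 14 erythroid genes summing to 1935, 4702 and 1881 TPM, most of it the adult globins. Whether the share of pituitary or blood changed other results was not tested.

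Genes that neurons switch on with activity were higher in 14 of 16 cases (median 2.71), 11 of them at least 4-fold. Egr3 was at 0.8, 0.74 and 0.7 TPM in the embryos and at 113, 82.2 and 31.9 TPM in the brains (log2 fold change 6.82). Arc, a gene of synaptic plasticity, was at 1.15, 1.06 and 0.63 TPM against 64.1, 30.9 and 77 TPM, and Egr4 had no counts in the embryos and was at least 450-fold higher in brain. Fos, the best known gene of this class, was at 4.24, 4.19 and 3.02 TPM in the embryos and at 16, 8.83 and 21.6 TPM in the brains (log2 fold change 2.15). All 3 brains lay above all 3 embryos in each of the 14. Ier2 and Btg2, which many growing cells induce, were lower in brain, with -2.09 and -1.50.

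Cell division genes were lower throughout. All 20 genes of replication licensing and S phase were lower in brain, 17 at least 4-fold (median -4.01), and all 22 mitotic genes were lower at least 4-fold (median -5.78). The mitotic genes summed to 1891, 2092 and 2009 TPM in the embryos and to 28.4, 26.8 and 29.8 TPM in the brains, and the S phase genes to 1728, 1864 and 1816 TPM against 218, 212 and 206 TPM. Ccnb1, the cyclin that starts mitosis, was at 120, 136 and 131 TPM in the embryos and at 0.58, 0.5 and 1.39 TPM in the brains (log2 fold change -7.01). Cdk1, the kinase it activates, was at 116, 125 and 124 TPM against 0.92, 0.74 and 1.62 TPM, and Ccnb2, another mitotic cyclin, at 104, 114 and 104 TPM against 2.34, 2.65 and 1.5 TPM. Top2a, which untangles chromosomes, had a log2 fold change of -6.98. Brains were below embryos in all of these with no overlap. Mcm6, a subunit of the replicative helicase, was at 155, 174 and 170 TPM against 8.55, 8.32 and 9.15 TPM (-4.13), and the initiator Cdc6 was at 12.9 to 13.3 TPM against 0.17 to 0.18 TPM (-6.10). Pcna, which also acts in DNA repair, had a smaller difference of -1.74, as had the cyclin gene Ccne1 with -1.52 and E2f1 with -1.83.

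Promoters show what the mitotic, S phase and activity-regulated genes share beside their expression. 4 kinds of letters were searched on both strands, from 250 bases before to 50 bases after each RefSeq start (GRCm38.p6). These were TTTGAA (core of the cell cycle homology region, CHR, where the DREAM complex represses genes in resting cells), CCAAT (bound by NF-Y), TTTCGCGC, TTTGGCGC, TTTCCCGC or TTTGCCGC (E2F sites) and TGACG (the core of a cAMP response element, bound by CREB). The kinds of letters and the promoters printed were chosen after matches had been seen. Promoters were found for 17 of the 22 mitotic genes, 16 of the 20 S phase genes and 12 of the 16 activity-regulated genes. Of 17 mitotic promoters, 12 (70.6%) held TTTGAA and 15 (88.2%) CCAAT, against 17.9% and 37.4% of all 32851 promoters. Only 1 mitotic promoter (5.88%), that of Cdk1, held an E2F match, against 2.26% of all. Of 17 S phase promoters, 7 (41.2%) held an E2F match and 12 (70.6%) CCAAT, against 2.26% and 37.4% of all, and only 2 held TTTGAA. Of 23 activity-regulated promoters, many of them alternative starts of 1 gene, 14 (60.9%) held TGACG against 20.8% of all, and none held an E2F match. TGACG was in 35.3% of mitotic and 41.2% of S phase promoters. A match is a description of the letters and not evidence of binding.

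The 200 bases before the start of 4 genes are shown 5′ to 3′ to make these letters visible, on the strand of the gene. Capitals mark the matches on either strand, so ATTGG is CCAAT read from the other strand. Cdk1 lies at chr10:69352913-69353112 on the minus strand, Ccnb2 at chr9:70421555-70421754 on the minus strand, Mcm6 at chr1:128359706-128359905 on the minus strand and Fos at chr12:85473690-85473889 on the plus strand. All 4 kinds of letters are marked. Cdk1 holds TTTGAA 2 times, CCAAT 2 times and an E2F match, Ccnb2 holds TTTGAA once, CCAAT 3 times and a TGACG (as CGTCA), Mcm6 holds 3 E2F matches, of which a pair on opposite strands overlap, and CCAAT 2 times, and Fos holds TGACG 2 times.
Cdk1: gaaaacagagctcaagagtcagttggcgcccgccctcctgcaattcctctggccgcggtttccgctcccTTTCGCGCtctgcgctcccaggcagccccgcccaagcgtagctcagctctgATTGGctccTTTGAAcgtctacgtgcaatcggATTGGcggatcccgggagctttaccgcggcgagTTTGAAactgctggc
Ccnb2: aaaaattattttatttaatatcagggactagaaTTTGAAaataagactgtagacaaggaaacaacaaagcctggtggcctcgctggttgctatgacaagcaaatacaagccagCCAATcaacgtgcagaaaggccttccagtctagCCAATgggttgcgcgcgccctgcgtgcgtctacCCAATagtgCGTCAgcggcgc
Mcm6: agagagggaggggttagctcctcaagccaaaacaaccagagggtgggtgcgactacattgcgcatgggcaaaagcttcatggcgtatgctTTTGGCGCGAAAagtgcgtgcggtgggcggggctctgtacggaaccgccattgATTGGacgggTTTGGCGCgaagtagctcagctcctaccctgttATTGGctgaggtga
Fos: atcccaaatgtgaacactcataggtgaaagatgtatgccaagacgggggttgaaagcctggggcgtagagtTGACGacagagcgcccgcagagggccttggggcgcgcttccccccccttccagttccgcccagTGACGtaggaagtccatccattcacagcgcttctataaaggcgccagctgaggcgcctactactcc

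Progenitor genes were lower in 13 of 20 cases, 1 was higher and 6 were not called (median -2.06). Nes, the intermediate filament of neural stem cells and of embryonic muscle, was at 116, 109 and 118 TPM in the embryos and at 1.26, 1.15 and 2.7 TPM in the brains (log2 fold change -5.90). Neurog2 and Nhlh1, factors of cells becoming neurons, had -4.42 and -4.70. Not called were Sox2, Pax6, Hes5, Dlx1, Dlx2 and Eomes. Sox2 was at 32.8, 25.5 and 27.3 TPM in the embryos and at 20.2, 14.4 and 38 TPM in the brains (log2 fold change -0.11, edgeR adjusted p = 0.756), and Pax6, Hes5, Dlx1 and Dlx2 also overlapped. Eomes, a factor of intermediate progenitors, was at 14.1, 8.83 and 9.8 TPM in the embryos and at 6.4, 2.02 and 0.74 TPM in the brains, with no overlap (-1.73, edgeR adjusted p = 0.0618). Sox1 was higher in brain (1.10), but not with the kit as a term over 12 libraries (0.59). With that term over the 6 libraries, 1 of the 20 genes was higher and 15 were lower. Stmn1, a microtubule regulator, stayed high, at 2201, 2049 and 2233 TPM in the embryos and at 1227, 1179 and 1471 TPM in the brains.

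Oncofetal and imprinted growth genes were lower in 14 of 15 cases (median -4.44), and 1 of the 15 was no longer called without any 1 of the embryos. Igf2, the fetal growth factor, was at 1664, 1585 and 1674 TPM in the embryos and at 45.8, 46.4 and 100 TPM in the brains. Hmga2, a chromatin protein of growing tissue, was at 97.7, 131 and 122 TPM in the embryos and at 0.12, 0.19 and 0.06 TPM in the brains, and Igf2bp1, which binds Igf2 RNA, had a log2 fold change of -9.79. Meg3, an imprinted noncoding RNA, was the member higher in brain, at 994, 870 and 388 TPM against 574, 573 and 566 TPM (1.37). Its TPM in brain 3 was below that of the embryos although its counts after TMM scaling were above, and it was not called when log2 TPM was tested (0.28).

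Tissues outside the brain made up the other lower lists. Collagens and their partners were lower in 19 of 20 cases (median -5.13), with Col3a1 of loose connective tissue at 937, 904 and 891 TPM in the embryos and 2.2, 2.18 and 5.6 TPM in the brains, and Col2a1 of cartilage at -7.71. Sparc, which astrocytes and vessels also secrete, was called higher (0.77) but was at 0.02 with the kit as a term over 12 libraries. With the kit as a term over the 6 libraries, 1 of the 20 genes was still higher and 19 were lower. All 14 skeletal muscle genes were lower (median -7.10). Myog, the factor that starts muscle differentiation, was at 164, 134 and 129 TPM in the embryos and had 1 count in the brains. Of 12 cardiac genes, 11 were lower (median -5.16, or -4.75 with genes without counts at their bound). Myl7 of the atrium was at 56.6, 96.4 and 127 TPM in the embryos and at least 358-fold lower in brain, and Ryr2, a calcium release channel of heart and neurons, was higher (3.75). All 14 genes of surface epithelium were lower (median -5.81), and Krt5 of the basal skin layer was at 140, 131 and 134 TPM in the embryos and had 3 counts in the brains.

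Fetal liver genes were lower in 10 of 13 cases, 2 were higher and 1 was not called. Embryo 2 had the most liver RNA and embryo 3 the least, with Afp, the fetal serum protein, at 194, 550 and 86.6 TPM and Alb, serum albumin, at 146, 437 and 54.6 TPM in embryos 1 to 3. The brains had 0.08, 0.24 and 0.1 TPM of Afp. Trf, the iron carrier that oligodendrocytes also make, was higher in brain, at 397, 529 and 424 TPM against 50.1, 112 and 28.6 TPM. Erythroid genes were lower in 13 of 14 cases (median -7.04, or -6.78 with bounds). Globins of the adult were still present in brain, and the joint Hba-a1 and Hba-a2 row was at 12426, 18101 and 11370 TPM in the embryos and at 597, 1272 and 588 TPM in the brains (-3.86). These globin genes are near-identical copies that share reads, so the split between them is uncertain.

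All 37 Hox genes tested were lower in brain, each at least 4-fold, and 23 of them had no counts in any WT brain. The whole list of 39 summed to 481, 427 and 444 TPM in the embryos and to 0.68, 1.05 and 0.98 TPM in the brains. Hoxb9, which patterns the trunk, was at 47.9, 23.8 and 27.6 TPM in the embryos and at least 746-fold lower in brain, and Hoxa10 was at 23.1, 26.1 and 22.8 TPM and at least 454-fold lower. The median log2 fold change was -8.97, or -7.53 with genes without counts at their bound. Genes at the front ends of the clusters, which are active in the hindbrain, were among those that kept a few counts in brain, such as Hoxa2 with 0, 0 and 0.12 TPM and Hoxb2 with 0.1, 0.21 and 0.09 TPM.

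Hedgehog signalling, which patterns the neural tube and limbs, was lower in 13 of 16 genes, higher in 1 and not called in 2 (median -2.54). The ligand genes Dhh and Ihh had log2 fold changes of -2.86 and -2.15 and Shh of -0.47 (edgeR adjusted p = 0.124), with 3.45, 4.18 and 4.62 TPM in the embryos and 2.7, 3.13 and 2.19 TPM in the brains. Among receptors, Ptch1 was not called (-0.16), and the signal transducer Smo went from 82, 76.3 and 84.1 TPM to 9.29, 10.9 and 16.7 TPM. Gli1, a target and effector of the pathway, went from 26.6, 26.8 and 29.7 TPM to 2.54, 2.48 and 3.52 TPM (-3.14), and the coreceptors Cdon and Gas1 had -3.67 and -3.25. Hhip, which binds and blocks the ligands, was called higher (0.68) but was at 0.12 with the kit as a term over 12 libraries. With that term over the 6 libraries, 1 of the 16 genes was higher and 14 were lower.

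**Figure D3:**
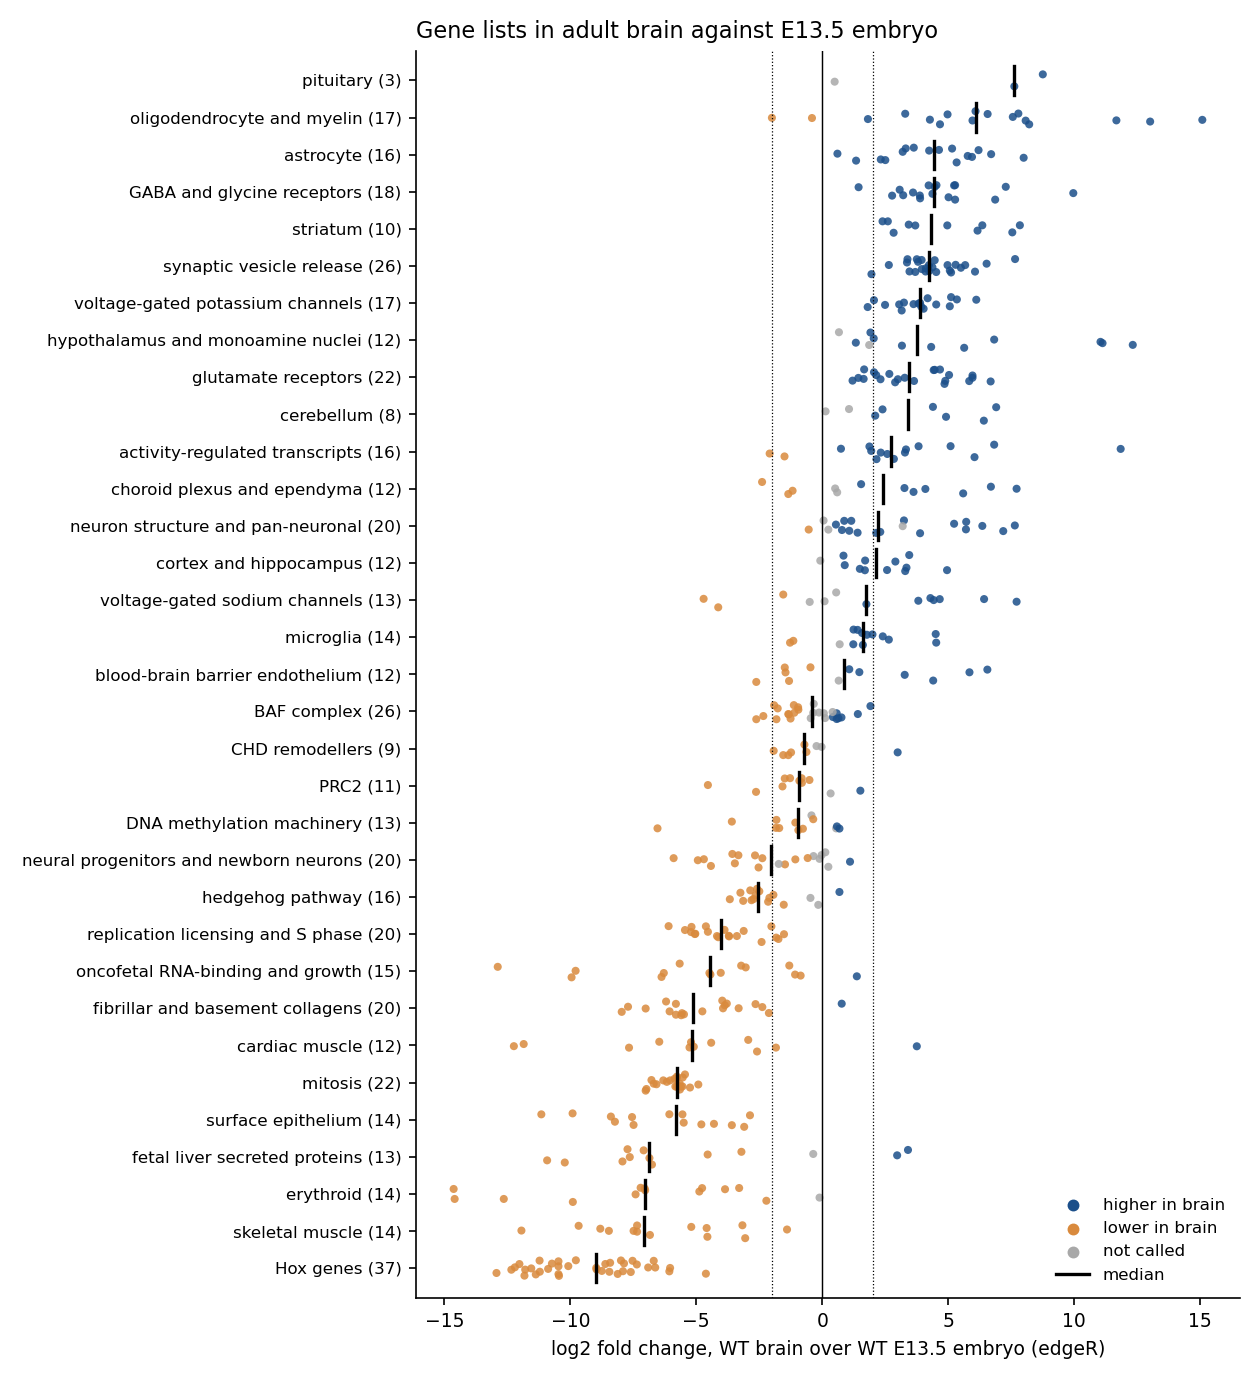
Log2 fold change of brain over embryo (x axis, edgeR) for each tested gene of 33 lists, with the number tested in parentheses, black bars at the median and dotted lines at 4-fold. Neuronal, glial and regional lists lie to the right, cell division, Hox, muscle, skin, blood and liver lists to the left, and chromatin complexes near 0.

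Genes of chromatin complexes differed less, and more of them were lower than higher. In the BAF complex, which moves nucleosomes, 7 genes of 26 were higher, 12 lower and 7 not called (median -0.41). Actl6a, a subunit of the progenitor form, was at 101, 105 and 110 TPM in the embryos and at 14.9, 14 and 17.5 TPM in the brains, and Actl6b, its counterpart of the neuronal form, was at 39.9, 29.2 and 35.1 TPM against 123, 126 and 103 TPM. Ss18 was lower (-1.35) and its neuronal counterpart Ss18l1 higher (0.76). In the third such exchange, Phf10 was lower (-1.26) but Dpf1 was not called (0.11, edgeR adjusted p = 0.605). With the kit as a term, Dpf1 was called higher over 12 libraries (0.55) but not over the 6 libraries (0.35). Smarcc2 (0.42) and Smarcd1 (0.57) were called higher but lost the call with the kit as a term over the 6 libraries (0.10 and 0.24), with upper-quartile scaling and in most fits without 1 library.

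Of 13 genes of DNA methylation, 9 were lower, 2 higher and 2 not called (median -0.95). Uhrf1, which brings the maintenance enzyme to replicating DNA, was at 95.7, 110 and 111 TPM in the embryos and at 0.7, 0.62 and 1.56 TPM in the brains (-6.54), and Dnmt1 itself was lower by less (-1.84). Mbd2, a reader of methylated DNA, was called higher (0.58) but not with the kit as a term over 12 libraries (0.08). In PRC2, which methylates histone H3 at lysine 27, 9 of 11 genes were lower and 1 higher (median -0.91). Ezh2, its catalytic subunit in dividing cells, was at 107, 113 and 107 TPM in the embryos and at 3.75, 3.34 and 5.58 TPM in the brains, and Ezh1, the form of resting cells, was at 10.8, 10.7 and 11.1 TPM against 26.4, 27.5 and 30.8 TPM (1.51).

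Of the 9 CHD remodellers, 6 were lower in brain, Chd5 was higher (2.99) and Chd3 and Chd9 were not called (median -0.71). With the kit as a term over 12 libraries, and in TruSeq libraries alone, Chd3 was called higher (0.42 and 0.19) and 7 of the 9 were lower. Chd2, the gene that the study is about, was at 26.5, 25.9 and 25.6 TPM in the embryos and at 8.05, 8.09 and 11.9 TPM in the brains, a log2 fold change of -1.35 (standard error 0.15, edgeR adjusted p = 0.000175). The groups did not overlap, and the log2 ratio of the TruSeq brain to the embryos was -1.08. Chaserr was at 42.1, 64.6 and 57.1 TPM in the embryos and at 30, 33.1 and 36 TPM in the brains (log2 fold change -0.55, standard error 0.186, edgeR adjusted p = 0.0308). Its groups did not overlap either, but the call was lost in the 6 libraries with the kit as a term and without embryo 2 or 3 or brain 1 or 2. Chd5, a neuronal member of the family, was at 6.42, 4.84 and 5.53 TPM in the embryos and at 37.7, 34.8 and 50.1 TPM in the brains, and Chd1, the closest relative of Chd2, had a log2 fold change of -1.93.

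Pairs of related genes, a widely expressed one and a relative listed for its use in neurons or in resting cells, gave a reading within each library that does not depend on scaling between libraries. For short the second is called the neural gene, although Lmna, Ezh1, Hk1, Ldhb and Dnmt3a serve many tissues. The ratio of the neural to the wide gene was higher on average in brain in all 26 pairs listed, by at least 2 on the log2 scale in 21, and all 3 brains lay above all 3 embryos in 24. In the TruSeq brain, all 26 ratios were above those of the embryos. The pairs had been listed for this property, so the direction itself is not a finding. In 14 pairs the ratio was under 1 in every embryo and over 1 in every brain, so the more abundant member changed.

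Snap25 over Snap23, its counterpart outside neurons, had the largest change, 8.41 on the log2 scale, from ratios of 0.683, 0.516 and 0.53 in the embryos to 199, 178 and 215 in the brains. Eef1a2 over Eef1a1, the elongation factors that bring tRNAs to the ribosome, changed by 7.55. Eef1a1 was at 10577 ± 770 TPM (SD, n = 3) in the embryos and 3462 ± 374 TPM in the brains, and Eef1a2 at 19.3 ± 4.02 TPM and 1202 ± 280 TPM, so Eef1a1 was still the more abundant in brain, with ratios of 0.419, 0.421 and 0.226. Ezh1 over Ezh2 changed by 6.06, from an excess of Ezh2 in the embryos, with ratios of 0.101, 0.0945 and 0.104, to an excess of Ezh1 in the brains, with 7.04, 8.23 and 5.52. Other large changes were in Atp6v1g2 over Atp6v1g1 of the proton pump (6.33), Tubb4a over Tubb5 of microtubules (5.21), Kif5a over Kif5b of axonal transport (4.58) and Hk1 over Hk2 of glycolysis (4.48).

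The pairs came about in different ways. The neural gene was higher and the wide gene lower in 10 pairs, and the neural gene was higher with the wide gene not called in 8. This last count depends on the kit, since with the kit as a term over 12 libraries Kif5b was called higher (1.18) and Tuba1b (-0.77), Dnm2 (-0.53), Dync1i2 (-0.37), Ap3b1 (-0.32) and Elavl1 (-0.23) lower. Both were higher in 4, such as Aldoc and Aldoa of glycolysis with 5.15 and 2.99, and both were lower in 3, such as Lmna (-1.48) and Lmnb1 (-5.07) of the nuclear lamina. Ptbp1 and Ptbp2, splicing regulators, were also both lower, with -3.04 and -0.75, and the call of Ptbp2 was lost with the kit as a term and without any 1 library but brain 3. The smallest changes were in Map2 over Map4 and Elavl4 over Elavl1, both 0.31, and in Elavl4 over Elavl1 the ratios of the SENSE brains, 0.887 and 0.916, lay within those of the embryos.

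**Figure D4:**
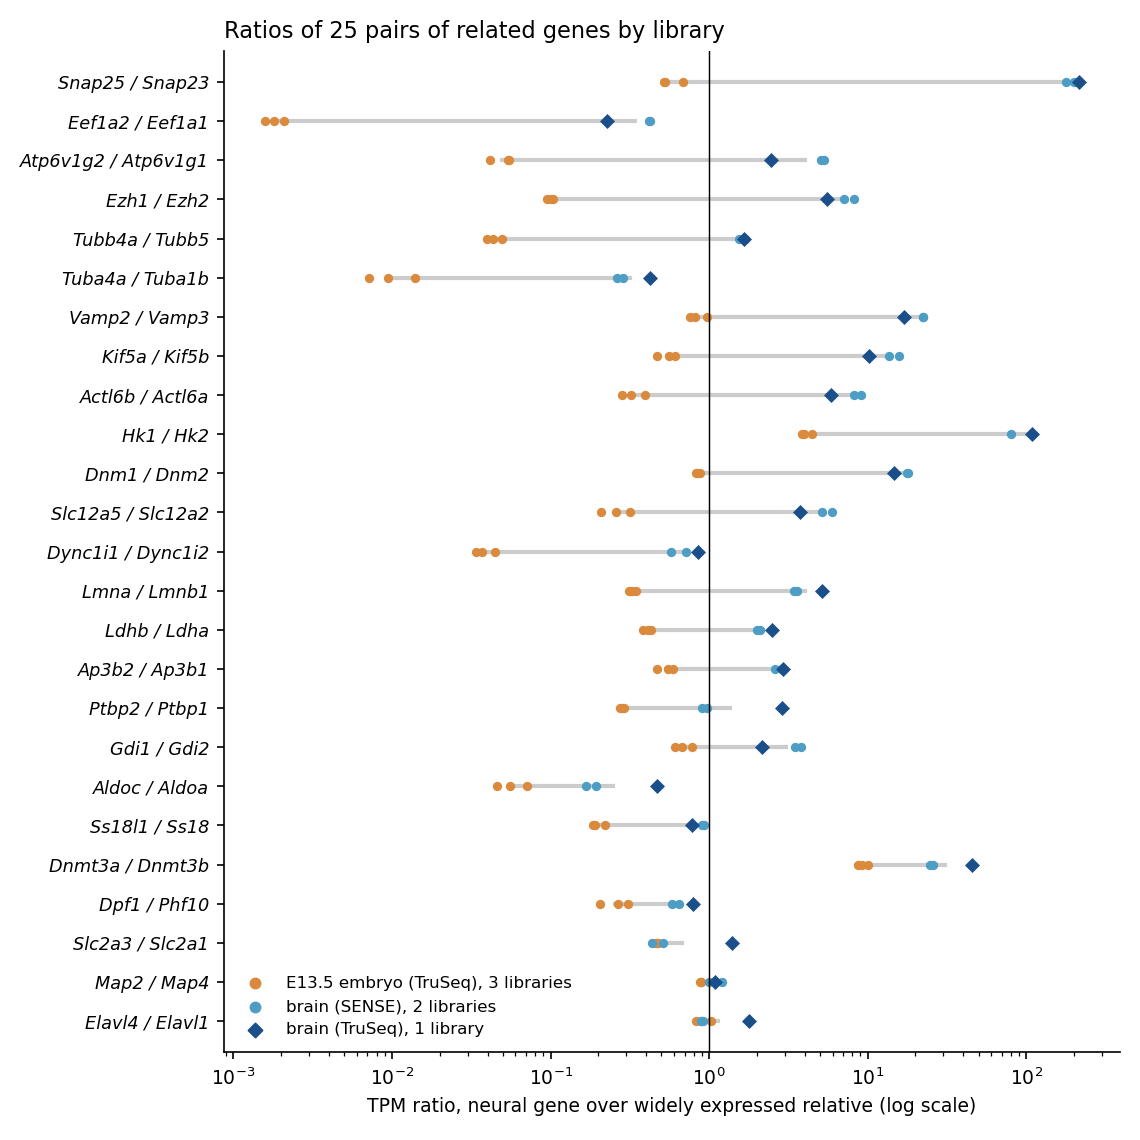
TPM ratio of the neural gene to its widely expressed relative (x axis, log scale) in each WT library for 25 of the 26 pairs, ordered by the change, with grey bars joining the mean of each tissue. The ratio moves to the right in brain in every pair shown, and the TruSeq brain (diamonds) lies beyond all embryos in each.

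Among the genes of these lists, the SENSE and TruSeq brains gave the same picture. All 486 of the 529 tested list genes that were called had brain 3 on the side of the call. With the kit as a term over 12 libraries, 21 of the 486 were no longer called. Beside those given above, they included Elavl4 (from 0.78 to 0.42), the glycine receptor gene Glra1 (from 3.21 to 0.88), Cbln1 (from 2.10 to 0.59), Neurod1 (from 2.39 to 0.31), Prox1 (from 0.89 to -0.06), Agrp (from 1.91 to 1.08), Dusp1 (from 0.74 to 0.48) and Aebp2 (from -0.51 to -0.21), and the liver genes Apoa2 (from -3.21 to -3.81), Serpina1a (from -6.86 to -6.03) and Ahsg (from -6.76 to -5.90). Over all genes, 87 calls were not seen in brain 3, 86 of them higher in brain, and 81 of the 87 also differed between kits. In the same fit, 10598 of the 11526 calls were called in the same direction and 4 in the opposite one, LOC668415 (from 2.70 to -0.45), Rpl38 (from 1.55 to -0.31), 3300002P13Rik (from 3.89 to -1.32) and Gpr39 (from 3.60 to -2.76). With TruSeq libraries alone, where brain 3 is assumed to vary like the embryos, 10825 were called in the same direction and 3 in the opposite one.

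**Figure D5:**
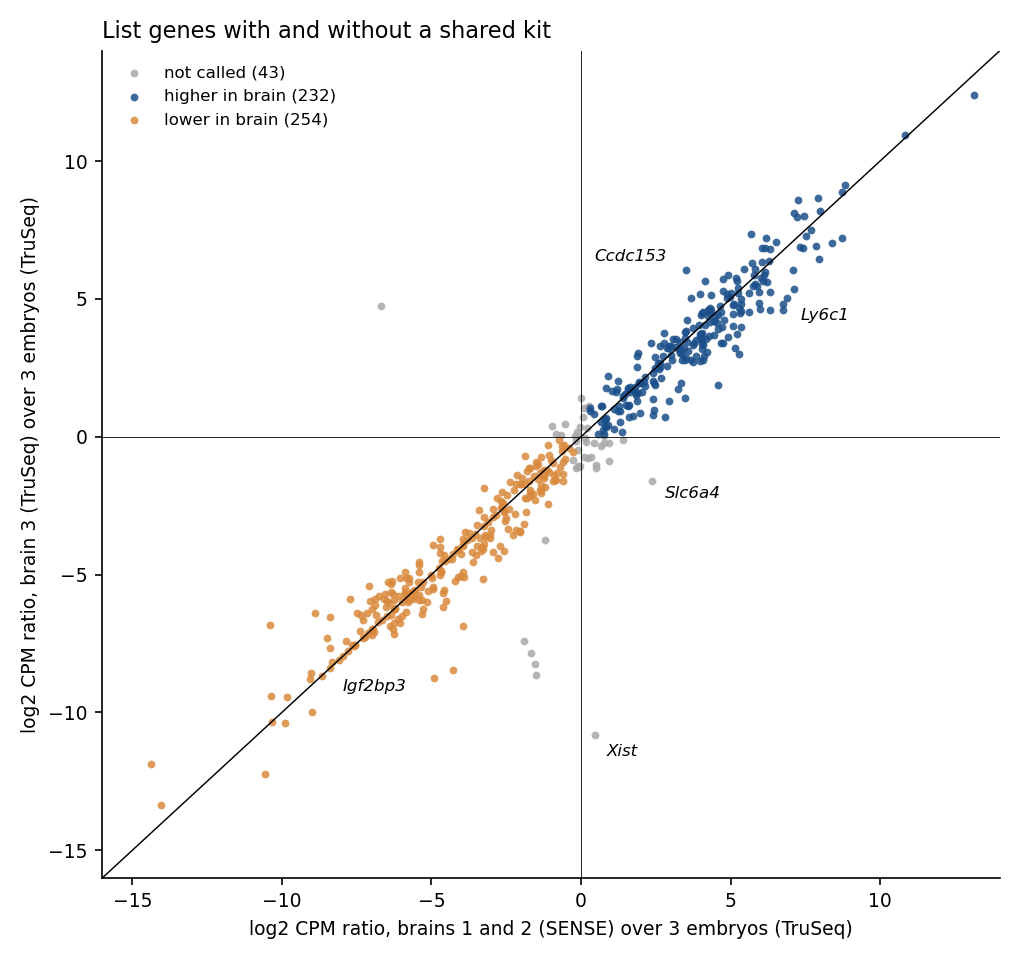
Log2 ratio to the mean of the 3 embryos (CPM with 0.1 added) for the 529 tested list genes, from the 2 SENSE brains (x axis) and from the TruSeq brain (y axis), coloured by call. Called genes lie on the side of their call in the TruSeq brain, and genes far off the line of equal values include some that are not called, such as Slc6a4 and Xist.

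The comparison was repeated in Chaserr+/- animals, which share no sample with the WT groups and have the same split of kits. Of 16187 genes, 10751 (66.4%) were called from edgeR, 5384 higher and 5367 lower. Of the 11526 WT calls, 11372 were tested there, 11276 had the same sign and 9844 were called in the same direction, as were 4226 of the 4315 tested genes with a 4-fold difference in WT. Chd2 had a log2 fold change of -1.13 and Chaserr of -0.82 in these animals. No gene of 16843 was called for a difference between the genotypes in the tissue effect (interaction term in edgeR, 897 at an unadjusted p under 0.05), while DESeq2 called 32 and edgeR with the kit as a term 14.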

How the data were processed

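The authors used RSEM and deposited an expected count and a TPM for each of 24990 rows of RefSeq genes, with the last exon of Chaserr corrected by hand, neither normalized between libraries. The submitters' processing notes name builds mm9 and mm10, and versions are not given in the sources used here. Rows were named by gene ID or transcript (24962 rows). Rounded expected counts went into edgeR 4.0.16 under R 4.3.3 (low counts removed by filterByExpr, scaling by TMM, prior count 2), whose quasi-likelihood p was adjusted by Benjamini-Hochberg over all genes tested. Calls were made under an adjusted p of 0.05. The biological coefficient of variation was 0.23. DESeq2 1.42.0 and limma 3.58.1 on log2 TPM were alternatives. For the log2 ratios of TPM in pairs and their changes, 0.1 was added to both genes, while ratios given for single libraries had nothing added. Upper-quartile scaling moved the median log2 fold change of all genes from -0.03 to -0.19, and fold changes are relative to such a shift.

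Simulated data had these depths, the common coefficient of variation above for every gene, no kit difference and 200 changed genes in each run. Of genes changed by 1 on the log2 scale, 48% were called, with 6.8% of calls false. Of genes changed by 2, 100% were called, with 4.33% of calls false. The real brains mix kits and most genes were called, so these rates may not hold for the real comparison. Replicate numbers were not treated as pairs, since deviations of same-numbered libraries did not correlate.

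The members, the 34 gene lists, the 26 pairs and the tests were chosen with earlier results of these data known. The rule for named genes took the 10 largest differences each way with at least 50 TPM, no overlap and brain 3 on the same side, and in each list the 3 largest called with at least 5 TPM, the most abundant, and members against the list's direction. Other genes given with values were chosen after their values were seen. No correction for kit was made in the main values. Several list members counted in the totals are not reported here by name.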

Additional observations from a re-analysis of the deposited data

How the results depend on the processing

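The count of 11526 calls ran from 10123 to 13855 when each library was left out in turn, the highest without brain replicate 3, whose loss leaves only SENSE brains. It was 11834 with DESeq2, 11693 with upper-quartile scaling, 11535 with RLE scaling, 11963 of 20219 genes without a filter, 9837 of 13865 with at least 10 counts in every library, 11230 and 11183 with limma on log2 TPM with 1 and 0.1 added, 12741 with the kit as a term, 13233 of 16852 in TruSeq libraries alone and 12662 with the kit over 12 libraries. Chosen after seeing the data, a fit without the symbol-free gene ID that dominates SENSE brains gave 11532. With the replicate number as a block, 11041 genes were called, 10827 of them shared, and correlations of same-numbered libraries were -0.000642, -0.146 and -0.0198, so the numbers do not pair the samples. The Chaserr+/- comparison called 10152 with that block and 9357 to 13105 without single libraries, and the kit comparison 4884 to 7269. A block could not be added to the kit comparison, where it overlaps the kit. The interaction called 0 genes by edgeR, 32 with DESeq2 and 14 with the kit as a term, and the cause was not tested. Of 3473 refits of named genes, 3330 kept direction and call, 89 lost the call, 28 gained it with the same sign, and 26 changed sign, 8 of these with a call. None of the named genes that changed sign was called at first. Chd3 went to 0.17, 0.19 and 0.42 (kit term over 6 libraries, TruSeq alone, kit over 12), and the same 3 settings gave 0.28, 0.30 and 0.11 for Atp6v1g1, -0.23, -0.21 and -0.43 for Slc2a1, and -0.27, -0.25 and -0.23 for Elavl1. Leaving out each library in turn gave -0.16 to 0.05 for Chd3 (0.00 without brain 1), -0.42 to 0.00 for Atp6v1g1, -0.32 to 0.02 for Tuba1b, -0.24 to 0.67 for Kif5b, -0.16 to 0.05 for Dync1i2, -0.05 to 0.22 for Dpf1 and -11.28 to 9.86 for Xist (9.86 without embryo 2). With the 3 kit settings, Kif5b was at 1.19, 1.21 and 1.18, Tuba1b at -0.75, -0.73 and -0.77 and Dync1i2 at -0.37, -0.35 and -0.37, all called. Dpf1 was at -0.04 with upper-quartile scaling and at -0.03 with both limma fits. The 3 kit settings gave 0.35, 0.37 and 0.55 for Dpf1, which was called higher with the kit over 12 libraries. Of 612 list counts, 602 stayed within 1.5 times, and 9 of the other 10 fell under the filter of at least 10 counts, which tests fewer genes. The last was the cerebellar list with limma on log2 TPM with 1 added. For genes without counts in a tissue, depth limits the fold to a lower bound.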

Other observations

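Families outside the lists were defined by symbol after the data were seen. Their counts are read against the 35.2% of all genes called higher and the 35.9% called lower. Of 75 cytosolic ribosomal protein genes, 59 were lower in brain and 1 higher (median log2 fold change -1.29), and the lone higher gene, Rpl38, turned lower with the kit as a term. Their summed level was 181155, 173781 and 180648 TPM in the embryos and 98994, 97067 and 76752 TPM in the brains. Genes with symbols of Eif and a number, not all of them initiation factors of translation, were lower in 33 of 53 cases and higher in 4 (-0.80). The hnRNP genes were lower in 16 of 18 (-1.50), and SR splicing factors lower in 9 of 11 and higher in 1 (-1.29). Nucleoporins were lower in 19 of 21 (-1.62), and proteasome subunits lower in 19 of 39 and higher in 1 (-0.44). In either direction, 20 of the 39 proteasome subunits were called, beside 71.1% of all genes.

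NADH dehydrogenase subunits were higher in 30 of 35 cases and lower in none (1.05), ATP synthase subunits in 10 of 17 (0.62) and vacuolar ATPase subunits, which acidify synaptic vesicles and lysosomes, in 15 of 18 (2.12), with sums of 1918, 1760 and 1815 TPM in the embryos and 7923, 7706 and 7923 TPM in the brains. Of 78 mitochondrial ribosomal proteins, 21 were higher and 9 lower, and their median of 0.12 turned to -0.03 with upper-quartile scaling. The direction of every other family median named here held with upper-quartile and RLE scaling, with DESeq2, with the kit as a term over 12 libraries and without brain replicate 3.

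Potassium channel genes (Kcn) were higher in 65 of 87 cases and lower in 10 (2.66), calcium channel genes (Cacn) in 19 of 25 and lower in 4 (2.04), regulators of G protein signalling in 12 of 21 and lower in 4 (2.15) and protocadherins in 24 of 33 and lower in 2 (1.35). Wnt ligands were lower in 14 of 18 cases and higher in 1 (-1.54), and the 376 zinc finger genes named Zfp were lower in 168 cases and higher in 43 (-0.46).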
